A study of Mus musculus with 21 samples.

Results

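TCF1, the product of Tcf7, is a transcription factor with an HMG box. It binds the minor groove of DNA, bends it, and acts at enhancers of developing T cells and of the progenitors of innate lymphoid cells, where it is one of the earliest factors of the lineage to appear. The early innate lymphoid progenitor (EILP) is a bone marrow stage defined by its expression. CUT&RUN, called ChIC-seq in some of the labels, maps a bound factor by tethering micrococcal nuclease to its antibody and sequencing the DNA released, and an IgG antibody with no specific target records the cutting that happens without one.

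The peaks described here are those of TCF1 in EILP called against the IgG control, on chromosomes 1 to 19 and X of mouse build mm9. The pooled TCF1 list holds 6679 peaks. The 10 peaks in a stretch around Tcf7, on chromosome 11 at 52067277 to 52098065, were set aside, and no peak lay on another chromosome, which leaves 6669 peaks of the 215239 in the 4 peak lists of the series. All members were measured, and no filter on low values was applied beyond the q cutoff of 0.05 of the authors' peak call.

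EILP were sorted from the bone marrow of C57BL/6 mice as Lin-, Kit+, 2B4+, a4b7+, Tcf7+ and Thy1- cells. The genotype label of every EILP library, TCF1, IgG and DNase-seq alike, is Tcf7EGFPnull/+, a reporter allele of the gene whose product was mapped, although the source name reads EILP_WT. There were 6 TCF1 libraries from 4 library numbers and 4 IgG libraries from 3 library numbers, each of 500 formaldehyde-fixed cells digested for 3 minutes, and 4 of the TCF1 and 2 of the IgG libraries are technical repeats. The antibody label names TCF1 for the IgG libraries too, so their group rests on the titles. Open chromatin comes from DNase-seq of 300 cells per library, in 3 libraries each of the all-lymphoid progenitor (ALP), EILP and the innate lymphoid cell precursor (ILCP). The ALP and ILCP libraries carry the genotype label Tcf7EGFP/+.

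A further 2 libraries with 1 library number are titled TCF1 while their description names the IgG track, and per the file header that number is part of the pooled control. They were placed in no group. If they hold TCF1 signal, the control background of bound sites is too high and the fold enrichment too low. No list without them was analysed here, so their part in the values below was not tested.

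Each list was called on 1 pooled tag file, so no value has a replicate error and no test across libraries could be made. Intervals in parentheses are 95% intervals (Wilson for shares, binomial order statistics for medians). They cover the counting of peaks only and treat each peak as a separate draw, and the spread between mice is not part of them. The pooled TCF1 file held 2418839 tags after filtering and its control 2919489. The EILP DNase-seq file held 11236009 and gave 70040 DNase I hypersensitive sites (DHS) on the chromosomes used.

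TCF1 peaks were low. The pileup, which is how many extended tags cover the summit, ran from 3 to 43 with a median of 5, and 60.7% (59.5 to 61.9) of the peaks had 3 to 5 tags. Peaks of 4 tags were the most frequent, with 1826, followed by 1780 peaks of 5 tags, while 442 peaks rested on 3 tags. At the other end, 372 peaks (5.58%, 5.05 to 6.15) reached 10 tags or more. The peaks were also short: the median length was 110 bp (108 to 111), and 2830 peaks (42.4%) had the least length in the list, 100 bp, which is the length of 1 extended fragment.

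Fold enrichment, the authors' ratio of pileup plus 1 to local background plus 1, had a median of 5.15 and ran from 2.11 to 12.0. The background of a peak follows from this relation as (pileup + 1)/fold enrichment - 1. It took discrete values. Per the file header the larger tag file was scaled to the smaller, so that 1 control tag counts as 0.829 TCF1 tags, and the background is the highest of a genome-wide level and of levels in windows around the summit. The genome-wide level is 0.129 tags, 1 control tag in 1 kb gives 0.0829, and 1 control tag at the summit gives 0.829. All 6669 backgrounds were either the genome-wide level or a whole number of control tags per 10 kb within a tolerance of 0.01. A Poisson tail computed from pileup and background matched the deposited −log10 p of every peak within 2.7e-05.

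The control was as sparse as the peaks. Of the 6669 peaks, 1999 (30.0%, 28.9 to 31.1) had the genome-wide background of 0.129 tags, so no window around them held more control tags than the genome average allows. The median background, 0.166 tags, is the level of 2 control tags in 1 kb, and 1386 peaks (20.8%) had this value. A background of 0.829 tags or more, which takes a control tag at the summit or 10 in 1 kb, was found at 785 peaks (11.8%). A background of at least 1 tag was found at 171 peaks (2.56%).

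Height and background rose together over peaks (Spearman rho of 0.600, n = 6669 peaks of 1 list). Part of this follows from the call itself, which asks for more tags where the background is higher. The lowest height called was 3 tags at the genome-wide background, 6 tags where the background was that of 1 control tag at the summit (601 peaks), 8 tags for 2 control tags (127 peaks), 10 tags for 3 (22 peaks) and 12 tags for 4 (2 peaks). Peaks of 3 to 5 tags were called only at backgrounds below that of 1 control tag at the summit.

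**Figure D1:**
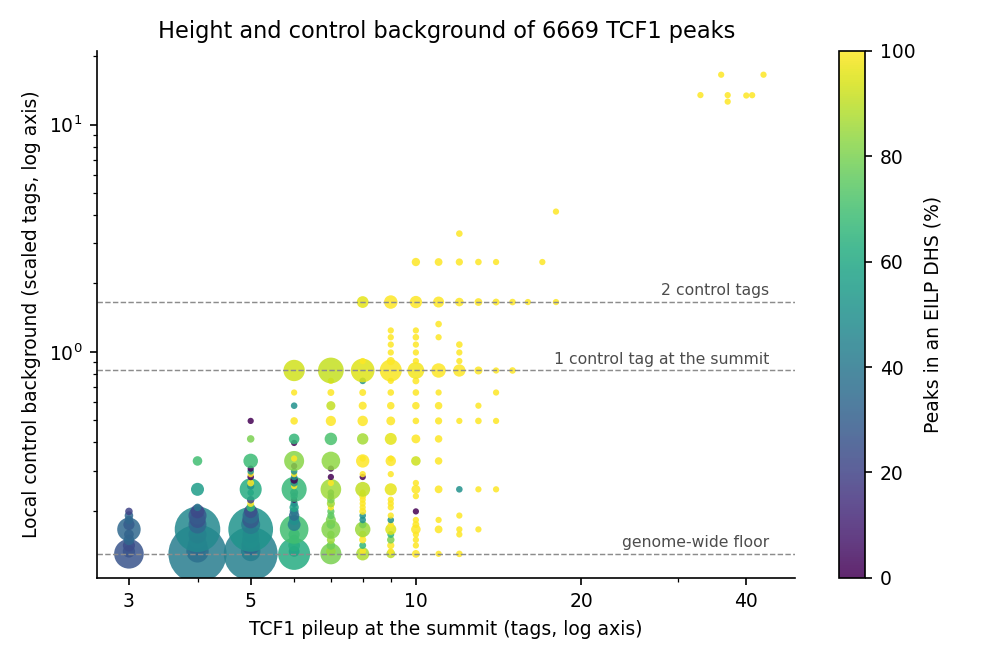
Control background (scaled tags, log axis) against TCF1 pileup (tags, log axis) for the 6669 peaks. Each point is 1 combination of both values, its area grows with the number of peaks, and its colour gives the percent of those peaks in an EILP DHS. Most peaks sit at 3 to 7 tags near the genome-wide level of 0.129, points on the line of 1 control tag start at 6 tags, and 7 peaks stand apart at 33 to 43 tags with backgrounds of 12.6 to 16.6.

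The highest fold enrichments outside the Tcf7 stretch belonged to tall peaks with little control. The highest was on chromosome 5 at 110536777 to 110536904, with 14 tags over a background of 0.249 and a fold of 12.0. Behind it came chromosome 4 at 97285643 to 97285939, with 13 tags over 0.166 (fold 12.0), and chromosome 7 at 112892864 to 112893102, with 12 tags over 0.129 (fold 11.5). All 3 lie inside DHS open in ALP, EILP and ILCP. The peak on chromosome 13 at 55471077 to 55471329 had 12 tags over 0.129 (fold 11.5), and the peak on chromosome 14 at 45839179 to 45839347 had 12 tags over 0.157 (fold 11.2). These 2 also lie in DHS of all 3 stages, and the summits of the 5 peaks were 36 to 123 bp from an EILP DHS summit. Among the 100 peaks with the highest folds, 94 lay in an EILP DHS, 86 in DHS of all 3 stages and 2 in none, against 57.6% (56.4 to 58.7), 44.7% (43.5 to 45.9) and 34.3% (33.2 to 35.5) of all 6669. These 100 had folds of 8.58 or more and 9 to 15 tags, and none had a background above 0.829. Of these, 21 (21%, 14.2 to 30.0) were in clusters of 3 or more peaks within 20 kb, against 15.2% (14.4 to 16.1) of all. Among all peaks of 8 to 10 tags, 805 of 847 lay in an EILP DHS and 85.2% in DHS of all 3 stages. Above 10 tags these shares were 99.5% and 91.5%. The 94 and 86 of the 100 are thus close to the shares of peaks of like height. The part of fold apart from height was not tested.

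The highest pileups were elsewhere. All 7 peaks of over 20 tags lay on chromosome 17 between 39980226 and 39985733, with 5.20 kb between the outer summits. Their pileups were 43, 40, 33, 37, 41, 36 and 37 tags in order along the chromosome. These are also the 7 highest backgrounds, from 12.6 to 16.6 tags, and their folds, 2.11 to 2.90, lie below the 3.01 that is the lowest of all other peaks. No other peak had more than 18 tags or a background above 4.14. The number of DHS called in the same stretch was 4 at the ALP stage and 3 at each later stage. The tallest of these reached 139, 149 and 168 tags in ALP, EILP and ILCP, which ranked 4, 4 and 2 by height among all DHS of the respective stage, yet their folds over the local DNase-seq background were at most 2.53, 2.69 and 2.44. TCF1, control and DNase-seq tags were thus all high at this stretch. The part of the high control in these 7 peaks was not tested.

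Once these 7 peaks are passed over, a choice made after their values were seen, the tallest peaks were on chromosome 16 at 11144150 to 11144281 (18 tags, background 1.66, fold 7.15) and on chromosome 17 at 4626316 to 4626580 (18 tags, background 4.14, fold 3.69). Both lie in DHS of all 3 stages. Their equal heights and unequal folds show how far the ranking depends on the control. Of the 100 tallest peaks of up to 20 tags, 28 were among the 100 with the highest folds.

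Open chromatin went with height far more than the overall share shows. Of the peaks of 3 tags, 28.5% (24.5 to 32.9) overlapped an EILP DHS by at least 1 bp. The share was 40.7% (38.5 to 43.0) at 4 tags and 45.3% (43.0 to 47.6) at 5 tags. It rose to 73.7% (71.5 to 75.8) at 6 to 7 tags and 99.5% (97.2 to 99.9) above 10 tags. At 8 to 10 tags, 805 of 847 peaks overlapped one (93.4 to 96.3%). The largest step lay between 5 tags and 6 to 7 tags. Of the 200 peaks above 10 tags, 199 lay in an EILP DHS, and 183 in DHS of all 3 stages. Peaks in no DHS of any stage made up 61.3% (56.7 to 65.7) of the peaks of 3 tags and 2.72% (1.82 to 4.04) of those of 8 to 10 tags. Peaks in DHS of EILP and ILCP but not ALP changed less in share, from 5.66% (3.86 to 8.22) at 3 tags to 8.58% (7.29 to 10.1) at 6 to 7 tags and 8.00% (4.98 to 12.6) above 10.

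**Figure D2:**
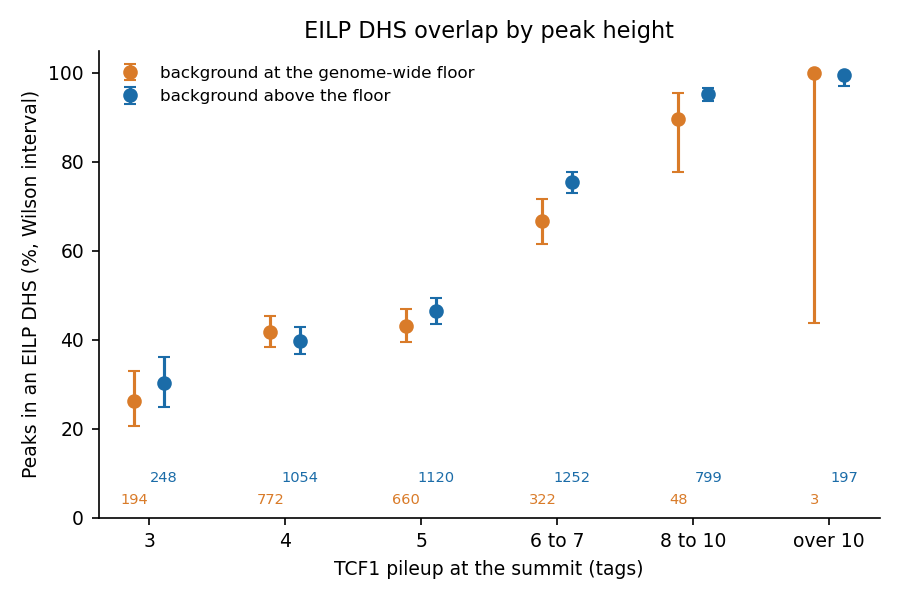
Percent of TCF1 peaks in an EILP DHS by pileup at the summit (tags), with 95% Wilson intervals and the number of peaks along the bottom, split by control background at the genome-wide floor (orange) or above it (blue). In both sets the share climbs, from 26.3% and 30.2% at 3 tags to 89.6% and 95.4% at 8 to 10 tags.

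The climb was present among peaks whose control did not exceed the genome-wide level. At the genome-wide background the share in EILP DHS was 26.3% (20.6 to 32.9) at 3 tags, 43.2% (39.5 to 47.0) at 5 tags, 66.8% (61.5 to 71.7) at 6 to 7 tags and 89.6% (77.8 to 95.5) at 8 to 10 tags. Above it, the corresponding shares were 30.2% (24.9 to 36.2), 46.5% (43.6 to 49.4), 75.5% (73.0 to 77.8) and 95.4% (93.7 to 96.6). The sites themselves were taller too: where a TCF1 peak lay in an EILP DHS, the median DHS height was 18 tags (16 to 20) for TCF1 peaks of 3 tags, 26 (24 to 27) for those of 6 to 7 tags and 43 (41 to 46) for those above 10. The rank correlation of both heights was 0.480 over 3839 peaks that share a pooled TCF1 file and a pooled DNase-seq file.

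TCF1 peaks with a high control background lay mostly in open chromatin. Of the 785 peaks with a background of 0.829 or more, 756 (96.3%, 94.7 to 97.4) were in an EILP DHS, against 46.0% (43.8 to 48.2) of the 1999 peaks at the genome-wide background. This held at like heights: among peaks of 6 to 7 tags, 91.7% (87.6 to 94.6) of 242 with the high background and 70.4% (67.9 to 72.8) of 1332 with a lower one lay in an EILP DHS. Seen from the other side, 19.7% (18.5 to 21.0) of the peaks inside EILP DHS and 1.02% (0.714 to 1.47) of those outside had the high background.

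TCF1 peaks were called in a small share of the open sites. Sites with weaker TCF1 signal are not detectable at this depth, so the share covers called peaks only. Of the 70040 EILP DHS, 3747 (5.35%, 5.19 to 5.52) held a TCF1 peak: 3641 held 1, 104 held 2, and 1 held 3. The most in any DHS was 6. DHS with 2 or more TCF1 peaks were longer and taller, with a median length of 449 bp (410 to 477) and 32.5 tags (30 to 36), against 300 bp (295 to 305) and 24 tags (23 to 24) with 1 TCF1 peak and 192 bp (191 to 193) and 13 tags with none. A longer interval can hold more peaks by its length alone. Of the 2289 TCF1 peaks in no DHS of any stage, 43.8% (41.8 to 45.8) had their summit within 1 kb of an EILP DHS summit, and the median distance was 1246 bp (1157 to 1330). Only 119 (5.20%, 4.36 to 6.19) were more than 20 kb from one.

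Along the genome, TCF1 peaks numbered 2.60 per Mb, counted between the outermost peaks of the 4 lists on each chromosome, and 95.2 per 1000 EILP DHS. The chromosomes differed. Relative to open sites, chromosome 11 had the most, 117 per 1000 EILP DHS (604 peaks), followed by chromosome 17 with 112 per 1000 (369 peaks). The fewest per 1000 were on X, with 67 peaks or 52.4 per 1000, and on chromosome 18, with 151 peaks or 72.8 per 1000. The ratio of the highest to the lowest chromosome was 2.22 (1.73 to 2.86, from the peak counts), and 1.60 (1.34 to 1.91) among the autosomes. Both chromosomes of each ratio were picked by their values. The ratio is therefore above 1 by its making, and the intervals do not cover this choice. The median height was 5 tags on each of the 20 chromosomes.

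X stood below every autosome. Of its 1278 EILP DHS, 3.05% (2.24 to 4.14) held a TCF1 peak, against 5.39% (5.23 to 5.56) on the autosomes, a difference of -2.34 percentage points (-3.17 to -1.24). Among EILP DHS at or above the list's median fold the shares were 4.72% (3.34 to 6.62) and 7.82% (7.54 to 8.10). Of the peaks that X did have, 58.2% (46.3 to 69.3) were in EILP DHS, within the 53.5 to 62.2% of single autosomes. Other measures differed on X as well. EILP DHS numbered 7.90 per Mb, against 22.5 to 43.7 on the autosomes, their median height was 11 tags against 12 to 14, and 56.7% (44.8 to 67.9) of its TCF1 peaks had the genome-wide control background, against 25.3 to 33.9%. The part of the lower DHS height and the emptier control of X in this result was not tested.

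**Figure D3:**
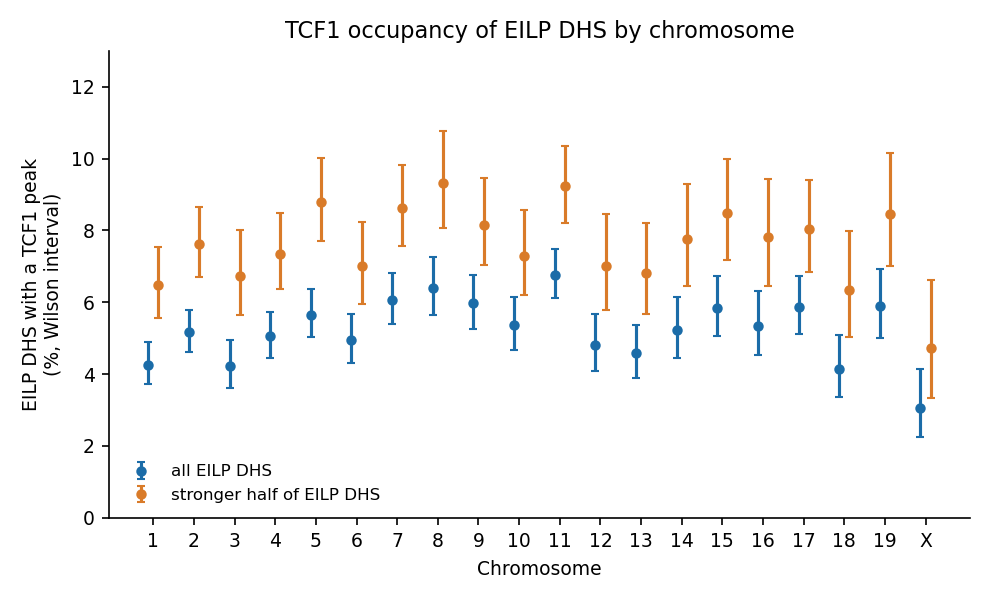
Percent of EILP DHS that hold a TCF1 peak on each chromosome, with 95% Wilson intervals, for all EILP DHS (blue) and for those at or above the median fold of the list (orange). X is lowest in both sets at 3.05% and 4.72%, and chromosome 11 is highest for all DHS at 6.77%.

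TCF1 peaks followed the density of open sites at the scale of 1 Mb. Over the 2233 windows with an EILP DHS, the rank correlation of both counts was 0.847, a description of 2 lists that share the mappable sequence of each window. No TCF1 peak was found in 753 of these windows, and 156 held 10 or more. The fullest window, on chromosome 11 from 115000001, had 29 peaks and 119 EILP DHS. The next were on chromosome 4 from 134000001 with 27 peaks and 125 DHS, and on chromosome 11 from 120000001 with 26 and 106. Chromosome 10 had 25 peaks in each of the neighbouring windows from 79000001 and 80000001, which held 130 and 154 DHS. These 5 windows had 162 to 245 TCF1 peaks per 1000 DHS, above the 95.2 of the genome, but they were picked for their peak number. Of the 510 windows with 50 or more EILP DHS, the median was 7 TCF1 peaks and 2 had none, the richer of them on chromosome 10 from 95000001 with 57 DHS.

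The longest stretches without a TCF1 peak held DHS, but few for their length. On X they ran for 15.1 Mb from 115078554 to 130223782, with 33 EILP DHS, and for 13.8 Mb from 20498158 to 34335559, with 38. Chromosome 7 had 13.3 Mb from 36664693 to 49948220 with 74 DHS, and chromosome 15 had 13.2 Mb from 38531993 to 51696276 with 113. Chromosome 1 had 11.9 Mb from 108610975 to 120560367 with 46 DHS. As a whole, X had 7.90 EILP DHS per Mb, and chromosomes 7, 15 and 1 had 29.6, 29.4 and 23.9. Each stretch was thus poorer in DHS than its chromosome.

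Neighbouring TCF1 peaks were unevenly spaced. The median distance from a summit to the nearest other TCF1 summit was 30670 bp (29002 to 32371), with 589 bp at the 10th percentile and 263395 bp at the 90th. Within 500 bp of another summit lay 598 peaks (8.97%, 8.30 to 9.68), and a further 605 (9.07%, 8.41 to 9.78) had their nearest neighbour at 500 bp to 2 kb. The 6669 tallest EILP DHS, a set of the same number, had a median distance of 45292 bp (43402 to 47158). Of these, 2.20% (1.88 to 2.59) had a neighbour within 500 bp and 4.56% (4.08 to 5.09) at 500 bp to 2 kb. TCF1 peaks thus had close neighbours more often than as many tall DHS. At 100 kb to 1 Mb the share was lower for TCF1 peaks, 23.1% (22.1 to 24.1) against 26.9% (25.8 to 28.0). The sets differ in peak length and in how they were called, and the difference was not tested.

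**Figure D4:**
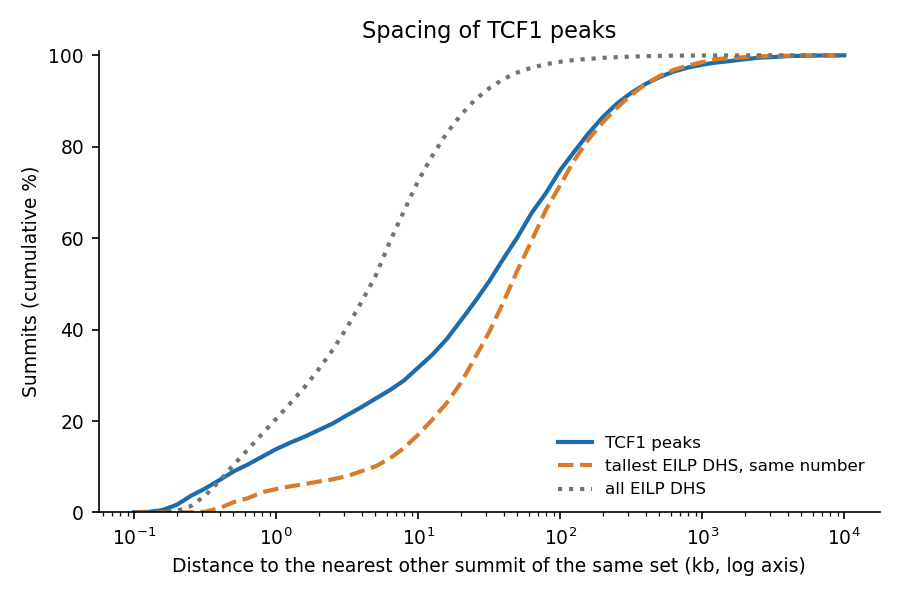
Cumulative percent of summits against the distance to the nearest other summit of the same set (kb, log axis), for the TCF1 peaks, for the same number of the tallest EILP DHS and for all 70040 EILP DHS. The TCF1 line leaves the axis below 1 kb, and its median lies at 30.7 kb against 45.3 kb for the tallest DHS.

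The close neighbours were of more than 1 kind. Of the 309 neighbouring pairs with summits within 500 bp, 107 (34.6%, 29.5 to 40.1) lay in the same EILP DHS. In 132 pairs (42.7%, 37.3 to 48.3) 1 peak was in an EILP DHS and the other outside, and in 42 (13.6%, 10.2 to 17.9) neither was. At 500 bp to 2 kb the mixed kind was the most frequent, with 202 of 334 pairs (60.5%, 55.1 to 65.6), and only 3 pairs shared a DHS. The mixed share was 48.5% (45.4 to 51.5) of 1017 pairs at 2 to 20 kb and 48.1% (45.9 to 50.4) of 1902 pairs at 20 to 100 kb. The mixed share was thus higher at 500 bp to 2 kb than among pairs farther apart. Neighbouring pairs can share a peak and are not separate draws, and the difference was not tested.

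Clusters were defined as 3 or more summits within 20 kb, with overlapping groups joined. There were 290 clusters with 1017 peaks, or 15.2% (14.4 to 16.1) of all. Most were small: 204 had 3 peaks, 53 had 4 and 33 had 5 or more. The median span between their outer summits was 11.7 kb (10.6 to 13.5). By the same definition the 6669 tallest EILP DHS formed 104 clusters with 5.47% (4.95 to 6.05) of their number, and of all 70040 EILP DHS 65.5% (65.1 to 65.8) were clustered. Taken alone, the 3839 TCF1 peaks in EILP DHS had 6.12% (5.41 to 6.92) in clusters, with a median nearest distance of 64719 bp (60616 to 68447), and the 2830 outside had 5.62% (4.83 to 6.53). Fewer summits form fewer clusters, so these shares are not comparable with that of all TCF1 peaks. Chromosome 11 had the most clusters, 34, while chromosome 8 had the largest share of its peaks in clusters, 24.5% (20.3 to 29.1) of 368. X had 1 cluster, of 3 peaks.

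The clustered peaks were of the same median height as the others. Their median height was 5 tags and their median fold 5.15, as for the 5652 peaks outside clusters, and 5.51% (4.26 to 7.08) of them reached 10 tags against 5.59% (5.02 to 6.22). They were in EILP DHS at 55.4% (52.3 to 58.4) against 58.0% (56.7 to 59.2), a difference of -2.60 percentage points (-5.93 to 0.690). The share did not change steadily with cluster size: it was 54.7% (50.8 to 58.6) in clusters of 3 peaks, 61.8% (55.1 to 68.1) in clusters of 4 and 50.3% (43.3 to 57.2) in clusters of 5 or more. For clusters of 5 or more peaks the difference from unclustered peaks was -7.70 percentage points (-14.8 to -0.604). This interval takes the 193 peaks of these 33 clusters as separate draws, which neighbours in a cluster are not. The difference was not tested. With only EILP DHS at or above the list's median fold, 37.5% (34.5 to 40.5) of clustered and 44.5% (43.2 to 45.8) of other peaks overlapped one. Without the 7 peaks on chromosome 17, a choice made after the data were seen, 55.0% of the clustered peaks were in EILP DHS. Most clusters mixed both kinds: all peaks were in EILP DHS in 37 of 290 (12.8%, 9.40 to 17.1), and none was in 22 (7.59%, 5.06 to 11.2). In 11 clusters no peak was in a DHS of any stage.

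The spans of the clusters held open sites of each stage. The median cluster held 3 EILP DHS, and 5 clusters held none. Over all 290 spans there were 848 ALP, 922 EILP and 908 ILCP DHS. From ALP to EILP the number rose in 103 clusters (35.5%, 30.2 to 41.2), fell in 50 (17.2%, 13.3 to 22.0) and was equal in 137. From EILP to ILCP it rose in 68 (23.4%, 18.9 to 28.7), fell in 79 (27.2%, 22.4 to 32.6) and was equal in 143. These are net counts of called sites, and the whole lists differ in length in the same order from ALP to EILP, with 66499 and 70088 DHS, while the ILCP list has 71973. The genotype label of EILP differs from that of ALP and ILCP, so stage and genotype cannot be told apart, and TCF1 was mapped in EILP cells only.

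The cluster with the most peaks lay on chromosome 11 at 120459701 to 120505166. It had 10 peaks of 4 to 7 tags over 45.2 kb, with folds of 3.83 to 6.41, and 7 of them were in EILP DHS. Its span held 7 ALP, 11 EILP and 11 ILCP DHS. All of its peaks were low. Which cluster is fullest depended in part on the setting. With −log10 q of at least 2 the chromosome 11 cluster shared the first place with the chromosome 4 cluster of 9 peaks at 133641664. With windows of 10 kb the chromosome 17 group of 7 shared it with the chromosome 10 cluster at 79604117. The chromosome 17 group was the fullest with peaks of at least 6 tags. With windows of 50 kb no cluster had more than the 11 peaks of that on chromosome 11 at 120411088 to 120505166.

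The following clusters were likewise made of peaks of at most 12 tags. On chromosome 1 at 88370174 to 88425029 there were 9 peaks of 4 to 9 tags over 54.6 kb, the widest cluster, with 6 of the peaks in DHS of all 3 stages and 3 in none. Chromosome 4 had 9 peaks of 4 to 12 tags at 133641664 to 133677803 and 8 of 4 to 9 tags at 134654596 to 134691882. In the first of these, 6 of 9 peaks were in EILP DHS, and its tallest peak, of 12 tags, lay in a DHS of EILP and ILCP that was not called in ALP. In the second, 4 of 8 peaks were in EILP DHS, 2 were in no DHS, and its span held 5 ALP, 5 EILP and 7 ILCP DHS.

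The 4 clusters of 7 peaks differed most in height. One is the group of 33 to 43 tags on chromosome 17 already described, which spans 5.20 kb and lies wholly in DHS of all 3 stages. The others had 3 to 10 tags. On chromosome 10 at 79604117 to 79631148, 6 of 7 peaks of 5 to 10 tags were in EILP DHS. On chromosome 15 at 101054494 to 101097289, 3 of 7 peaks of 3 to 8 tags were. On chromosome 9 at 114662268 to 114690919, 4 of 7 peaks of 4 to 7 tags were. These 3 clusters hold peaks both inside and outside EILP DHS, whereas the chromosome 17 group holds none outside.

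**Figure D5:**
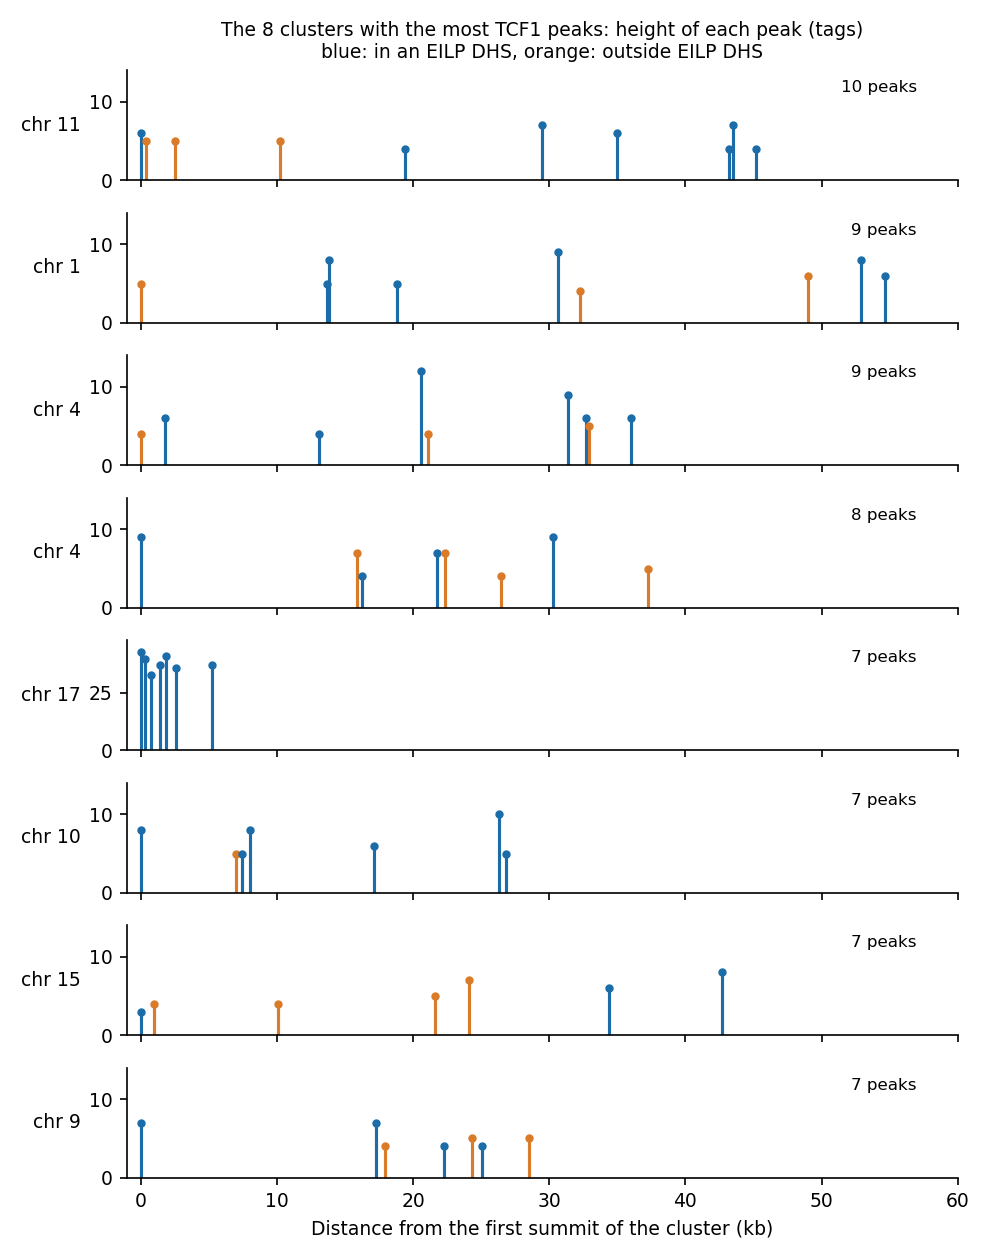
The 8 clusters with the most TCF1 peaks, each drawn as the height of its peaks (tags) against the distance from its first summit (kb), blue inside an EILP DHS and orange outside. The heights stay at 3 to 12 tags except on chromosome 17, where 7 peaks of 33 to 43 tags lie within 5.20 kb (between outer summits) and the height axis reaches higher.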

How the data were processed

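The 4 deposited peak lists were made by the authors with MACS version 2.1.1.20160309, per the file headers, at a q cutoff of 0.05 with at most 1 tag per position and fragments of 100 bp. Build mm9 is named in the submitters' processing notes, and the aligner is not given in the sources used here. The TCF1 call used a pooled control file named for IgG, with local background over 1 and 10 kb. DNase-seq was called without a control. Values used as deposited are pileup (signal in tags), fold enrichment (a ratio), −log10 p and −log10 q. Depth was 2418839 TCF1 and 2919489 control tags, so a peak rests on few tags.

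From these, background, spacing, clusters and overlap (at least 1 bp) were computed with Python 3.11.15, numpy 2.4.6, pandas 2.3.3 and scipy 1.17.1. The functions were tested on simulated lists. No test between groups was made, because no value per library was analysed; a Poisson p was recomputed per peak only to check the background. Pooling removes the spread between libraries. Sites are named by position, since the reference tables are on another build. Sequences, motifs and genes at the peaks were not analysed here. Sites named were the 5 peaks with the highest fold, pileup and background, the 8 largest clusters, the 5 fullest windows of 1 Mb, the 5 longest gaps, and the 2 highest and 2 lowest chromosomes. The members, measures and rules were chosen with earlier results of these data known.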

Additional observations from a re-analysis of the deposited data

How the results depend on the processing

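Of 74 values recomputed under 13 settings, 48 stayed within the interval of the reported value or, for counts, within 1.5 times. Including the Tcf7 stretch, or leaving out the 7 peaks on chromosome 17, moved none of the values recomputed under it. The ratio of the highest to the lowest chromosome was 1.60 among autosomes. Leaving out those 7 peaks, and using autosomes only for this ratio, were settings chosen after seeing the data. The cut on height moved the most values, all of those recomputed under it. It also left fewer peaks, and fewer summits form fewer clusters. No list was matched to it in number, so the part of height in its spacing and cluster values was not tested. With peaks of at least 6 tags there were 2621 peaks, with a median pileup of 7, a median fold of 6.01, a median background of 0.249, 14.2% at the genome-wide background, a median nearest distance of 90640 bp, 40 clusters with 5.11% of the peaks, 76.1% of clustered and 82.9% of other peaks in EILP DHS, and a chromosome ratio of 2.93. The fullest cluster was then the one on chromosome 17, of 7 peaks. With −log10 q of at least 2 the nearest distance was 33746 bp and 13.2% of peaks were in clusters. Windows of 10 kb gave 166 clusters with 8.49% of the peaks, windows of 50 kb gave 526 with 30.2%, and chains with gaps of up to 20 kb held 17.9%. With summits within 500 bp counted once, the nearest distance was 37419 bp and 10.8% were in clusters. Where the TCF1 summit had to lie in the DHS, 47.2% of clustered and 51.3% of other peaks did, and with the stronger-scoring DHS 37.5% and 44.5%. A background of pileup over fold, with no pseudocount, had a median of 0.968, which follows from leaving out the 1 that MACS adds. No paired analysis was possible because each list pools its libraries, and for the same reason no replicate was left out. With few tags per peak and a control of similar depth, weaker sites are not detectable here.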
